A study of Mus musculus with 102 samples.

Results

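The regions described here are the 6 CTCF-bound constitutive low-methylated regions among the 88 regions chosen for bisulfite sequencing of amplicons in mouse embryonic stem cells (ESCs). They are every region that the deposited region list gives this type, and their members are all CpGs measured inside them. The amplicon time courses held 23 such CpGs in 5 of the 6 regions, out of 405 CpGs in all. A second assay, in which genomic fragments were captured by hybridization before sequencing (SureSelect), held 41 CpGs inside the 6 regions and 36 more within 2 kb of their ends, out of 2177608 CpGs.

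CTCF is a zinc-finger protein that binds DNA at insulators and at the anchors of chromatin loops. Low-methylated regions are short stretches of intermediate to low CpG methylation away from promoters, often at sites where a transcription factor is bound, and constitutive ones are low in several cell types. In ESCs the DNMT3A and DNMT3B enzymes add methyl groups de novo, DNMT1 copies them at replication, and the TET enzymes oxidise them on the way to their removal.

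2 lines were compared. The wild-type line (WT) carries floxed alleles of Dnmt3a and Dnmt3b on a C57BL6/J background and has active TET enzymes. The TTKO line is a single clone made from it in which all 6 alleles of Tet1, Tet2 and Tet3 were mutated with guides against the catalytic exons, so it carries the same floxed alleles. Cre protein delivered to the cells removes the catalytic exons of both de novo enzymes, and mock cells received the dialysis buffer of the Cre preparation only. Non-transduced cells were collected at day 0, and Cre and mock cells at days 4, 8, 10, 13, 17 and 29, with 3 samples in each amplicon group. The capture assay followed the TTKO Cre course and WT cells at day 0, with the 3 replicates joined and without mock samples. Nothing in the labels says that the 3 samples came from separate derivations, so p-values measure the spread between these samples.

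Depth was high in the amplicon data. The samples held between 1892557 and 4706462 CpG observations over the 405 CpGs, and each reported member level rested on at least 307 reads, with a median of 3002 in WT and 2596 in TTKO. A level needed 100 reads, and whole regions fell below this in single samples: the chr14 region in TTKO mock replicate 3 at day 29, 3 regions in TTKO Cre replicate 1 at day 4, and 1 region in 1 WT sample at days 4, 8 and 10. In the capture data the members had between 53 and 1612 reads, with a median of 323. Levels of the 23 CpGs measured by both assays differed at day 0 by a median of 2.29 percentage points in TTKO and 2.19 in WT, and by at most 12 and 9.03.

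All 6 regions lie outside annotated protein-coding genes (mm9, GENCODE M1) and are called here by the nearest one. The Ipcef1 region (chr10:3269944-3270343) lies 23720 bases from this gene and held 6 amplicon CpGs. The Sf3b5 region (chr10:12738258-12738657) lies 9270 bases from the gene of a small splicing-factor subunit and held 3. The Apob region (chr12:8066318-8066717) lies 42677 bases from the apolipoprotein B gene and held 3. The 2700060E02Rik region (chr14:20659085-20659484) lies 16040 bases from this gene and held 8. The Lonrf2 region (chr1:38844321-38844721) lies 5793 bases from this gene and held 3. The Chrm3 region (chr13:9846098-9846498) lies 29883 bases from the annotated gene of a muscarinic acetylcholine receptor and was measured by capture only, at 7 CpGs inside it.

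CTCF binding was not measured in these data, so only the sequence was set against the label. Low methylation is part of the region type and is no check of it. The best match to the CTCF core consensus, a motif of 12 positions with 4 ambiguous ones, was searched on both strands of each region. It reached 12 of 12 positions in the Sf3b5 and Apob regions and 11 in the Ipcef1, 2700060E02Rik and Chrm3 regions. At least 11 positions were matched in 5 of the 6 regions, in 4 of the other 82 (4.88%) and in 3.31% of 14536 windows of 400 bases spaced along chromosome 19. The Lonrf2 region reached 9 positions, at 4 places. The 5 matches of 11 or 12 positions lay within 60 bases of the centre of their region. They are shown with 24 bases on either side, from the mm9 reference, 5′ to 3′ on the strand of the match, with the matched bases in capitals, since the position of each CpG relative to them is used below.
Ipcef1 region, chr10:3270156-3270215, minus strand: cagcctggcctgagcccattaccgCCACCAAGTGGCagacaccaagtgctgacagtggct
Sf3b5 region, chr10:12738437-12738496, plus strand: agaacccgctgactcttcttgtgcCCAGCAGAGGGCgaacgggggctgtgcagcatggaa
Apob region, chr12:8066548-8066607, plus strand: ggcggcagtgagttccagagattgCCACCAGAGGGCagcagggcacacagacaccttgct
2700060E02Rik region, chr14:20659212-20659271, plus strand: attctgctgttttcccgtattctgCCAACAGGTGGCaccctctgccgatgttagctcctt
Chrm3 region, chr13:9846230-9846289, minus strand: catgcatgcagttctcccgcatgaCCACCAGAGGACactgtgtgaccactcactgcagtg

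In the Ipcef1 region a match of 11 positions on the plus strand overlaps the one shown, shifted by a single base. No match held a complete CpG. In the Sf3b5 region the CpG at 12738472 begins on the last base of the match, and in the Ipcef1 region the CpG at 3270192 directly adjoins it.

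At day 0 the members were low in WT and spread widely in TTKO. Over the 23 amplicon CpGs the mean level per sample was 17.47, 17.39 and 19.02% in WT and 36.1, 33.5 and 29.9% in TTKO. Every TTKO sample lay above every WT sample, and the difference of 15.2 percentage points had p = 0.1 in a two-sided exact permutation test of 3 against 3 samples, the smallest p that this design allows. Weighting CpGs by their reads gave a difference of 26.0 points, and averaging region means gave 13.3. In WT 18 of the 23 CpGs were under 20% and 3 were at 50% or more, and in TTKO 11 were under 20% and 7 were at 50% or more.

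The difference between the lines was uneven from CpG to CpG. 12 of the 23 CpGs (52.2%) were higher in TTKO in a quasi-binomial model of the reads fitted over all 405 CpGs (adjusted p under 0.05, moderated with limma), and none was lower. Of all 405 CpGs 59.3% were called higher, so the members' share was not above the background. The difference exceeded 20 points at 6 CpGs and was within 5 points at 9. It was called at 5 of 6 CpGs of the Ipcef1 region, 3 of 8 of the 2700060E02Rik region, 2 of 3 of the Lonrf2 region and 1 of 3 in the Sf3b5 and Apob regions.

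The CpG at 3270090 in the Ipcef1 region had the highest TTKO level and the largest difference between the lines. It measured 89.2, 91.4 and 88.3% in TTKO and 25.7, 25.6 and 29.9% in WT. The difference was 62.6 points, with a log2 odds ratio of 4.52 ± 0.14 (SE, adjusted p = 3.3e-07). The next CpGs, at 3270131 and 3270136, lie 5 bases apart and differed alike between the lines, with 61.7% ± 4.03 and 63.0% ± 2.11 in TTKO against 12.9% ± 3.33 and 9.34% ± 2.40 in WT (SD, n = 3). At the CpG at 3270192, beside the match, TTKO measured 11.9, 7.89 and 9.67% and WT 3.84, 7.47 and 10.0%, and the lines overlapped. The 6 CpGs of this region thus ranged from 9.82% to 89.6% in TTKO, while in WT they ranged from 7.10% to 27.1%. The stretch is given here on the plus strand with each measured CpG in capitals, beginning with the capture CpG at 3269967.
Ipcef1 region, chr10:3269957-3270230: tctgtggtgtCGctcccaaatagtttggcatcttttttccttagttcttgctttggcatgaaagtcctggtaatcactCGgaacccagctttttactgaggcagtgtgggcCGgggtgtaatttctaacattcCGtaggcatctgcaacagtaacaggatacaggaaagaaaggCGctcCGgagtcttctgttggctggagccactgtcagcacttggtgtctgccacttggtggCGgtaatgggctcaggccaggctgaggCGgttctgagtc

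The lowest TTKO level was at 20659129 in the 2700060E02Rik region, with 5.99, 9.10 and 3.45% in TTKO and 7.07, 3.98 and 4.60% in WT. The samples of both lines overlapped. The smallest signed difference was at 8066472 in the Apob region, where TTKO measured 8.52, 15.4 and 8.65% and WT 13.2, 13.1 and 17.1%. TTKO was lower by 3.59 points on average, which the test did not call (adjusted p = 0.291). In the Lonrf2 region the CpGs at 38844448 and 38844457, 9 bases apart, measured 22.1% ± 4.14 and 40.0% ± 4.01 in TTKO against 7.65% ± 2.34 and 7.19% ± 1.57 in WT (SD, n = 3), and both were called higher.

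**Figure D1:**
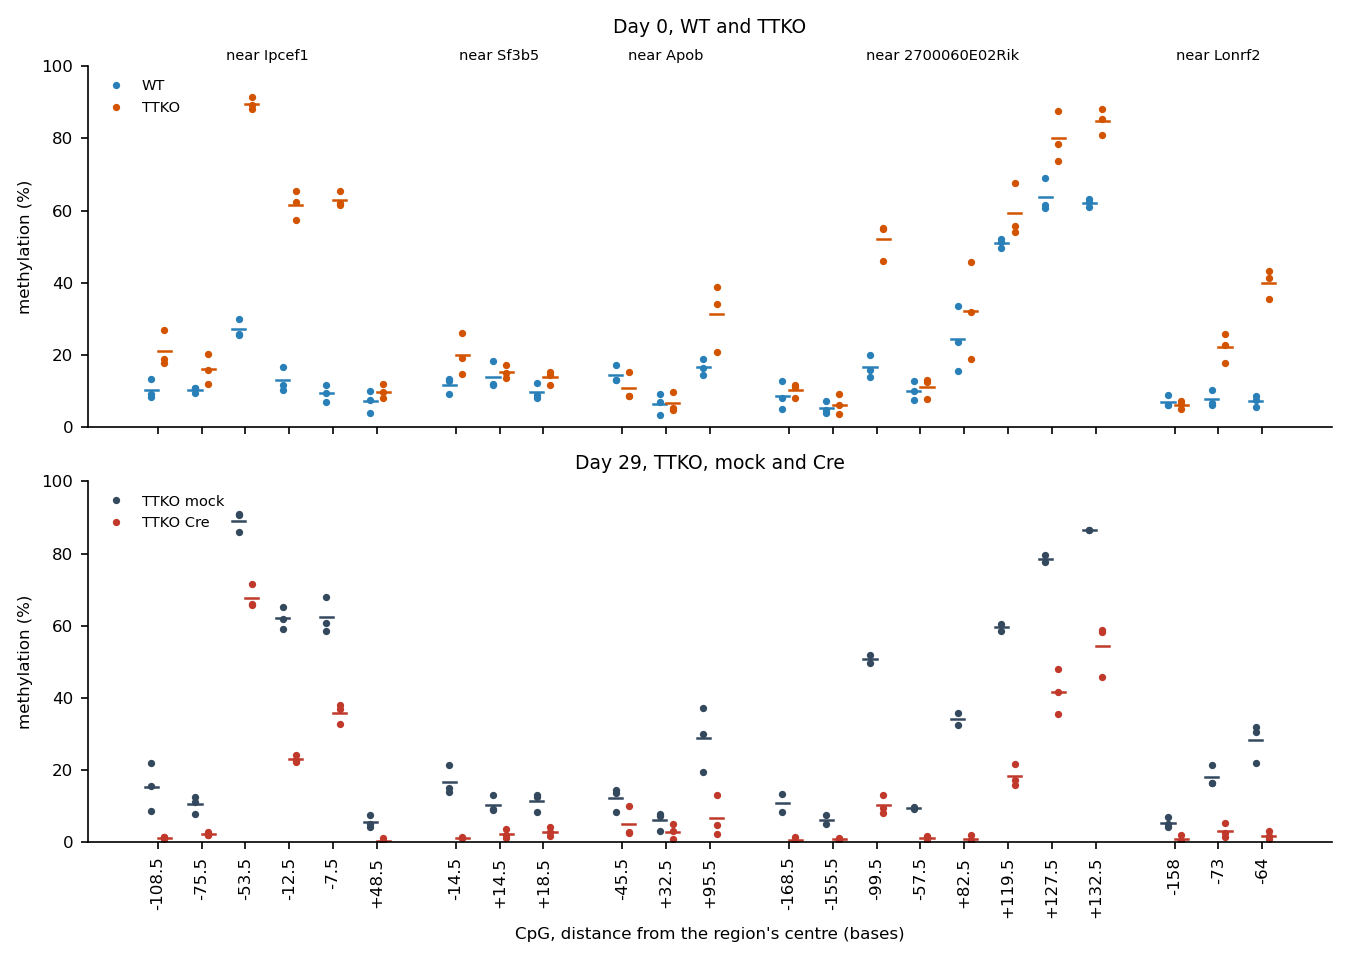
Methylation (%) of the 23 amplicon CpGs, grouped by region and ordered by distance from the region's centre in bases. Points are samples and bars their mean, for WT and TTKO at day 0 (top) and for TTKO mock and Cre at day 29 (bottom, 2 mock samples in the 2700060E02Rik region). At day 0 the TTKO means range from 6.18% to 89.6%, and at day 29 every Cre mean is below its mock mean.

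After Cre the TTKO members lost methylation steadily. The average of the 23 CpG levels was 33.2% before transduction and 27.6, 24.02, 21.8, 18.8, 16.2 and 12.4% at the 6 later time points, from day 4 to day 29. In mock cells it stayed between 31.2% and 36.6%. At day 29, 21 of 23 CpGs (91.3%) were called lower in Cre than in mock, against 68.6% of all 405 CpGs, and none was called higher. No CpG was called at day 4, neither among the 23 nor in the background (0%). The count was 7 at day 8, against 18.5% of all CpGs. It was 15 at day 10 (background 43.3%), then 13 at day 13 (background 33.1%), and reached 17 at day 17 (background 53.6%). At day 4, 2 member CpGs had an unadjusted p under 0.05, a number not counted over all CpGs, so nothing is read from it. The 7 calls of day 8 fell to 0 with limma on the logit of the levels and to 0 when any replicate number was left out, and to 3 with the replicate number as a block. Over all 405 CpGs the 75 calls of that day fell alike, to 1 with limma, to 1 or 2 without a replicate number and to 32 with the block. Later counts also rested on single replicates, and those over all CpGs fell with them. At day 10 there were 5 calls without replicate 1 (58 of all 402 CpGs) and 8 without replicate 2 (86 of all 405). Without replicate 2 there were 4 calls at day 13 and 8 at day 17 (42 and 114 of all 405). Without replicate 3 there were 8 and 10 (89 and 137 of all 405). At day 29 the count stayed between 15 and 19, and that over all 405 CpGs between 225 and 247. With 1000 reads required in every sample 12 of 15 members were called at day 29, and 199 of all 302 CpGs tested.

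The 2 CpGs not called at day 29 in TTKO were both in the Apob region, where the Cre samples were variable. At 8066472 Cre samples measured 2.79, 9.90 and 2.40% and mock samples 13.5, 14.3 and 8.40% (adjusted p = 0.0988). At 8066550 Cre samples measured 2.97, 4.92 and 0.75% and mock samples 7.67, 2.93 and 7.32% (adjusted p = 0.188). The Cre and mock samples overlapped at both CpGs. In the other 4 regions each of the 20 CpGs was called. The call at 20659129, the lowest CpG (Cre 0.43, 1.09 and 0.72% against mock 7.39 and 5.01%), was lost with the replicate number as a block (adjusted p = 0.0712) and when any replicate number was left out.

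Region means at day 29 separated Cre from mock in TTKO in each of the 5 regions. The Ipcef1 region measured 22.9, 20.9 and 21.4% after Cre and 39.8, 39.1 and 43.5% in mock. The 2700060E02Rik region measured 17.6, 14.2 and 16.1% after Cre and 42.5 and 41.4% in mock, where replicate 3 had no level. These regions kept the most methylation. The Sf3b5 region measured 2.38, 2.55 and 1.29% after Cre and 12.4, 11.8 and 14.2% in mock. The Lonrf2 region measured 2.02, 1.57 and 2.13% after Cre and 18.0, 14.2 and 19.4% in mock. The Apob region measured 3.49, 9.32 and 1.83% after Cre and 19.4, 15.8 and 11.7% in mock, so that its highest Cre sample came near its lowest mock sample. CpG by CpG, every Cre sample was below every mock sample at 21 of 23 members, against 75.8% of all CpGs.

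For the comparison of means, a CpG needed a level in all TTKO samples, which left the 3 CpGs of the Lonrf2 region, where Cre minus mock was -15.3 points. With CpGs that had a level in every sample of day 29, a choice made after seeing the data, 15 CpGs of 4 regions remained. Their mean was 10.7, 11.1 and 9.61% after Cre and 25.9, 23.97 and 26.5% in mock. The difference had p = 0.1 in both cases (exact permutation test, two-sided, the smallest that 3 against 3 allows).

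**Figure D2:**
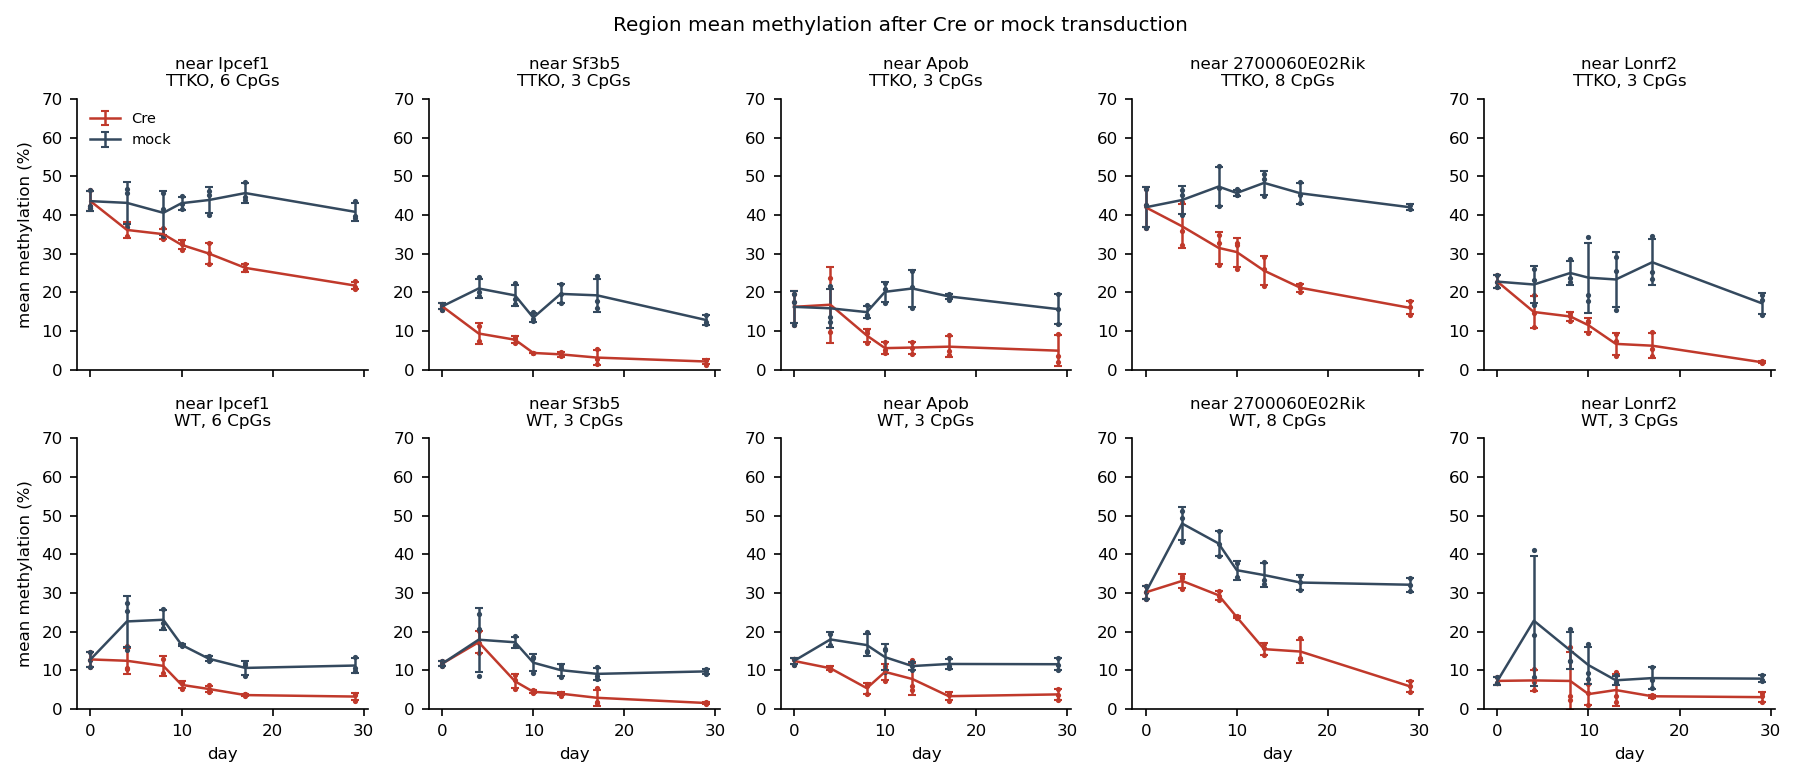
Mean methylation (%) of the amplicon CpGs of each region against day, for TTKO (top) and WT (bottom). Points are samples, lines their mean with SD, red for Cre and dark blue for mock, both starting from the non-transduced day 0 samples. In TTKO at day 29 the Ipcef1 region keeps 21.7% and the 2700060E02Rik region 15.97% after Cre, and the other regions 1.91% to 4.88%.

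WT members lost methylation from a lower start. The average of the 23 levels was 18.0% before transduction and 19.4, 15.7, 12.3, 8.93, 7.37 and 4.00% at the 6 time points after Cre. The WT mock course was not flat: it stood at 30.3% at day 4 and 27.3% at day 8, then at 21.6%, 19.2%, 17.9% and 17.9%. In the 2700060E02Rik region WT mock samples measured 49.5, 51.2 and 43.3% at day 4 against 30.4, 28.4 and 31.7% before transduction, so the groups did not overlap. In the Lonrf2 region the WT mock samples of day 4 spread from 8.25% over 19.1% to 41.2%. After Cre the WT average of day 4 was also above that of day 0, so the early WT comparisons have no flat reference.

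At day 29, 17 of 23 WT CpGs (73.9%) were called lower in Cre, against 52.3% of all CpGs. Without replicate 1, 11 of them were called, and 157 of all 405. At day 4 none was called (background 0%), and 9 had an unadjusted p under 0.05. The share of all CpGs under that level was not counted, so nothing is read from the 9. The count was 9 at day 8 (background 35.8%), then 6 at day 10 (background 24.9%). It rose to 11 at day 13, against 33.1% of all CpGs, and 15 at day 17, against 50.9%. No member was called higher at any of these days. Leaving out replicate 1 lowered the counts of days 8, 10, 13 and 17 to 4, 3, 1 and 6, and those over all 405 CpGs fell as well, to 71, 19, 15 and 108. Leaving out replicate 2 lowered the member count to 3 at day 8 and 2 at day 10 (50 and 5 of all 405 CpGs). Leaving out replicate 3 lowered it to 5 at day 8 (115 of all 405). With the replicate number as a block 4 members were called at day 8 (97 of all 405 CpGs). Limma on the logit of the levels called 3 at day 10 (53 of all 405). Every Cre sample was below every mock sample at 18 of 23 members at day 29, against 64.4% of all CpGs.

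The CpGs with the highest TTKO levels after Cre measured less in the WT Cre samples. At 3270090, WT Cre samples of day 29 measured 3.36, 8.72 and 8.34% and mock samples 19.8, 26.4 and 34.1%. At 20659417 WT measured 19.9, 15.2 and 9.05% after Cre and 63.9, 66.2 and 60.1% in mock. No WT Cre mean at day 29 exceeded 15.9%. The 6 CpGs of the Lonrf2 and Sf3b5 regions, those with a level in every WT sample, averaged 1.83, 2.89 and 2.27% after Cre and 8.51, 9.60 and 8.33% in mock, a difference of -6.48 points. Over all 23 CpGs, which had a level in every WT sample of day 29, the difference was -13.9 points. Both had p = 0.1 (exact permutation test, two-sided).

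Whether the change in log odds after Cre differed between the lines was tested as the interaction of line and treatment at day 29. None of the 23 members was called, against 5.68% of all CpGs, and limma on the logit of the levels also called none. 5 members had an unadjusted p under 0.05, a number not counted over all CpGs, and the lowest adjusted p was 0.117. The interaction ranged from -3.09 to 2.07 on the log2 odds scale over the members. The most negative value was at 38844457 (SE 1.21, adjusted p = 0.151) and the most positive at 20659185 (SE 1.25, adjusted p = 0.317). At 3270090 the interaction was 0.55 ± 0.49 (SE, adjusted p = 0.504).

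Within TTKO the relative loss by day 29 ranged from 23.98% to 97.2% of the mock level. Among the 10 members with at least 20% in mock it was largest at 20659367 in the 2700060E02Rik region. That CpG measured 2.06, 0.64 and 0.21% after Cre and 35.8 and 32.4% in mock, and its log2 odds ratio was -5.57 ± 0.84 (SE, adjusted p = 0.00119). Its day 0 samples were far apart, at 45.8, 31.8 and 18.7%. The loss was smallest at 3270090 in the Ipcef1 region, with 71.6, 66.0 and 65.7% after Cre and 85.9, 90.6 and 90.9% in mock, a log2 odds ratio of -1.90 ± 0.21 (SE, adjusted p = 0.000151). Its neighbours at 3270131 and 3270136 measured 23.0% ± 1.095 and 35.9% ± 2.76 after Cre against mock levels of 62.1% ± 3.07 and 62.4% ± 5.01 (SD, n = 3). The 5 bases between them thus separated a relative loss of 62.9% from one of 42.5%.

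Closely spaced CpGs in the 2700060E02Rik region also kept different levels. The CpGs at 20659404, 20659412 and 20659417 are 8 and 5 bases apart, and their Cre levels of day 29 were 18.2% ± 3.12, 41.6% ± 6.23 and 54.3% ± 7.37 (SD, n = 3). The capture assay extended this stretch by 2 CpGs. At 20659473 the captured TTKO reads were methylated at 87.3% at day 0 and 88.6% at day 29, with 95% Wilson intervals of 79.8% to 92.3% and 81.5% to 93.2% (110 and 114 reads). It had the smallest relative loss of the 47 capture members with at least 20% at day 0. At 20659480, 7 bases on, the levels were 88.6% and 85.8%. Across all 7 time points these 2 CpGs stayed between 83.6% and 89.9%, while 20659417, 56 bases upstream, fell from 84.0% to 38.6% in the same assay. In WT at day 0 they measured 65.3% and 52.7%, below TTKO (adjusted p = 0.000207 and 4.0e-09, Fisher's exact test). At 20659417 the 2 assays differed at day 29 by 15.7 points, the largest such difference among the 23 shared CpGs. The stretch is shown on the plus strand from 20659367 to 20659480 with the measured CpGs in capitals.
2700060E02Rik region, chr14:20659357-20659491: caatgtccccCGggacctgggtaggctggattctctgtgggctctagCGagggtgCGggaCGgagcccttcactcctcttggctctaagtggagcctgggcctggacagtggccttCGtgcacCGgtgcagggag

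**Figure D3:**
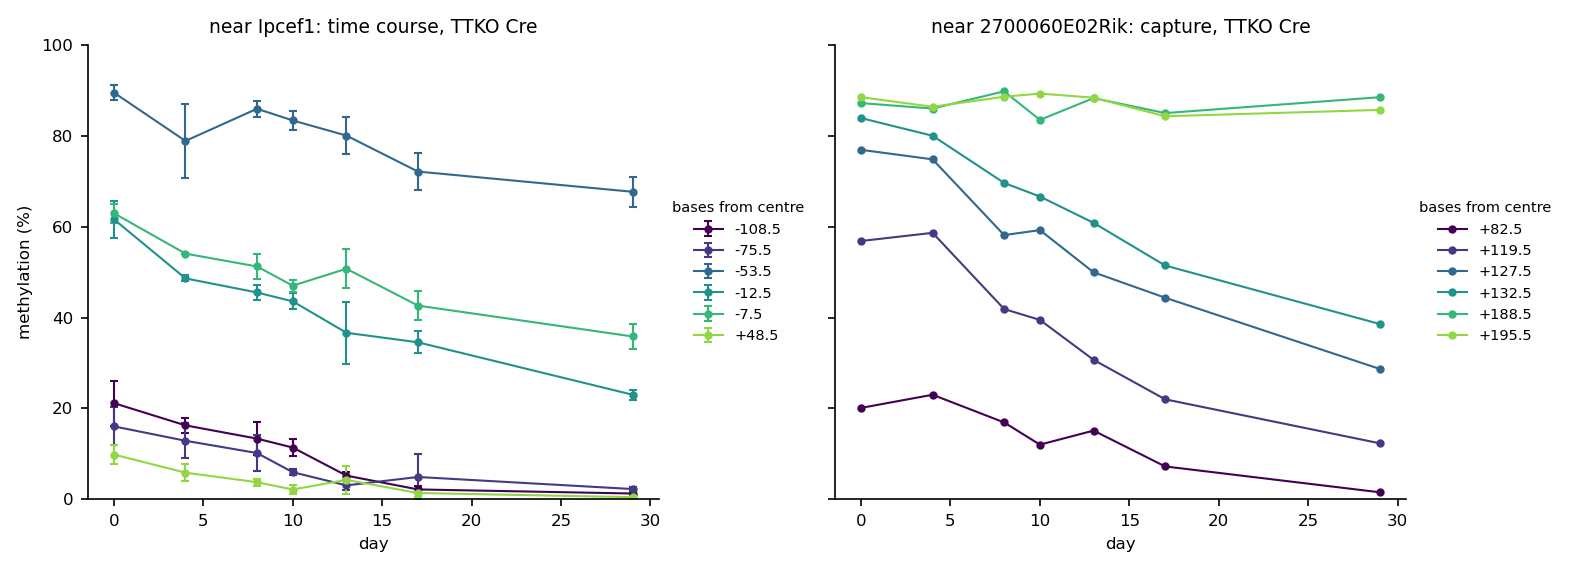
Methylation (%) against day after Cre in TTKO for neighbouring CpGs, coloured by distance from the region's centre in bases. The left panel shows the 6 amplicon CpGs of the Ipcef1 region as means with SD, and the right panel the last 6 capture CpGs of the 2700060E02Rik region as joined replicates without error. On the right the last 2 CpGs stay between 83.6% and 89.9% while the CpG before them falls to 38.6%.

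Levels in the capture data differed with distance from the CTCF consensus match. The 36 CpGs inside the 5 regions with a match of at least 11 positions were ordered by distance from the centre of the match, and 4 ranges of distance were set after their values were seen, so the ranges are a description without a test. The 9 CpGs within 35 bases, from all 5 regions, were low in both lines, at 0.6% to 13.0% in WT and 1.5% to 16.2% in TTKO. The last CpG inside this range, 3270219 at 34 bases, measured 11.1% and 13.0%, and the first outside, 8066613 at 36 bases, measured 7.5% and 22.5%. None of the 9 was called different between the lines.

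The 10 CpGs from 35 to 100 bases had a median of 13.6% in WT and 44.5% in TTKO, and 8 were called higher in TTKO. Of all capture CpGs 44.7% were called higher, and since the ranges were set on these values, nothing is read from the counts per range. 4 of them lay between 49 and 56 bases from the match, in the Ipcef1, Chrm3 and 2700060E02Rik regions, and measured 54.4% to 64.2% in TTKO against 7.3% to 18.8% in WT. The exceptions were 9846301 and 9846303 in the Chrm3 region, at 3.4% and 6.1% in TTKO. The next 8 CpGs, 105 to 150 bases from the match, were low again in both lines, with medians of 8.0% in WT and 9.0% in TTKO and 1 called higher. The 9 farthest CpGs, at 163 to 239 bases in 3 regions, had medians of 52.7% in WT and 59.2% in TTKO, and 6 were called higher in TTKO. CpGs of a region share reads and a sequence context, and they were not treated as replicates.

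**Figure D4:**
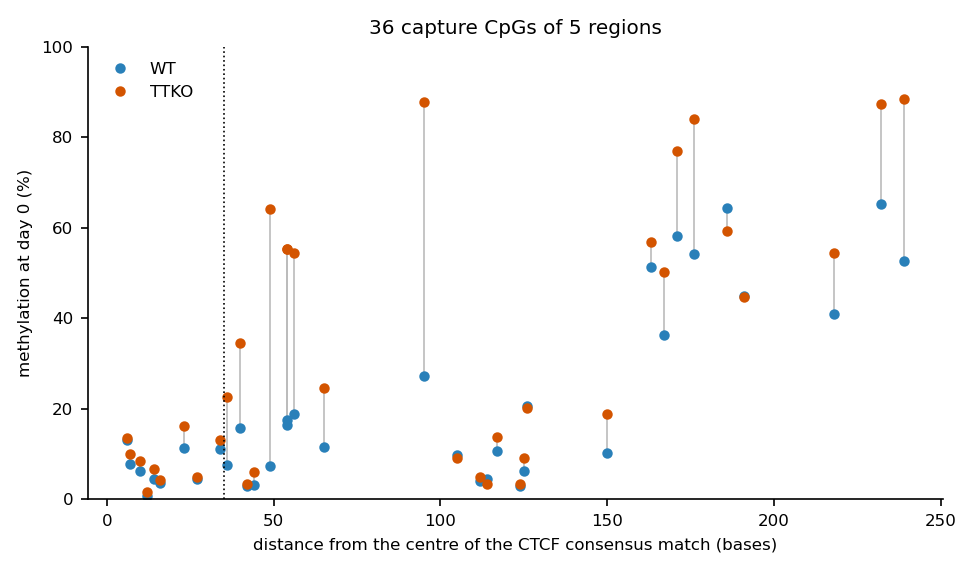
Methylation at day 0 (%) of 36 capture CpGs inside 5 regions against distance in bases from the centre of the CTCF consensus match, with a grey line joining the WT and TTKO value of each CpG. The dotted line marks 35 bases. The 9 CpGs to its left are at most 16.2% in either line, and between it and 100 bases TTKO values reach 87.9%.

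Over the whole capture set the loss after Cre was widespread. Inside the regions 35 of 41 CpGs (85.4%) were lower at day 29 than at day 0 in TTKO, and none higher (Fisher's exact test on joined reads, adjusted over all CpGs). Of all CpGs 59.3% were called lower. This test compares the joined libraries, with no replicate spread, and there is no capture mock course. With a difference of at least 10 points required as well, 23 of 41 (56.1%) were called, close to the 51.9% of all CpGs under the same rule. The 6 CpGs not called were the 2 near 88% in the 2700060E02Rik region and 4 that began at 6.0% or less. By the same test TTKO was called higher than WT at day 0 at 18 of 41 CpGs (43.9%), close to the 44.7% of all CpGs, and was called lower at none. In the Chrm3 region, not in the amplicon tables, 2 CpGs carried the difference. At 9846205 the level was 55.4% in TTKO and 16.4% in WT and fell to 12.2% by day 29, and at 9846219 it was 34.5% and 15.7% and fell to 3.5%. The other 5 CpGs of this region were between 1.5% and 6.1% in TTKO.

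Methylation was higher just outside the regions than inside them. A low level inside is part of the region type, so this step is a description and no independent result. As the mean of region means, TTKO at day 0 measured 26.2% inside the 6 regions (12.1% to 43.1%) and 63.8% in the first 250 bases outside (51.6% to 78.2%, 21 CpGs of 5 regions). WT measured 15.5% inside (4.26% to 29.4%) and 50% outside (42.3% to 66.0%). The ranges over regions did not overlap between inside and outside in either line. With at least 150 reads required they did overlap, since the low CpG at 3270355 alone then stood for the Ipcef1 flank: the TTKO range was 6.8% to 87.2% just outside and 15.4% to 39.7% inside. By day 29 TTKO had 8.60% inside and 35.3% in the first 250 bases outside. The loss was thus 67.1% of the day 0 level inside and 44.7% just outside. Farther out few CpGs were captured: 1 CpG from 250 to 500 bases, at 87.2% in TTKO, 1 from 500 to 1000 bases, at 79.6%, and 13 from 1000 to 2000 bases beside 2 regions only, with a mean of 41.4%.

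The flanks also lost methylation after Cre. Within 2 kb outside, 34 of 36 CpGs (94.4%) were called lower at day 29, against 59.3% of all CpGs. 20 of 36 (55.6%) were called higher in TTKO than in WT, against 44.7% of all CpGs. With an over-dispersed binomial in place of Fisher's exact test 16 of 36 (44.4%) were called higher, against 40.6% of all CpGs under that test. The only flanking CpG called lower in TTKO was 12736710, at 33.2% against 48.3% (0.907% of all CpGs were called in this direction). The step between inside and outside differed between edges. In the Sf3b5 region 12738633, 24 bases inside the end, measured 50.2% in TTKO and 12738661, 4 bases outside, 87.7%. In the 2700060E02Rik region TTKO showed no step on the right, with 87.3% and 88.6% at the last 2 CpGs inside and 84.0% and 81.2% at the first 2 outside, 129 and 147 bases away. In the Ipcef1 region the only CpG captured just beyond the right end, 3270355 at 12 bases outside, was low and measured 6.8% in TTKO and 7.5% in WT. The largest relative loss of all capture members with at least 20% at day 0 was in a flank, at 12738769, 112 bases beyond the Sf3b5 region, where the level went from 42.5% to 2.2% (153 and 137 reads, 95% Wilson intervals 34.9% to 50.4% and 0.747% to 6.24%). WT measured 46.7% there.

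**Figure D5:**
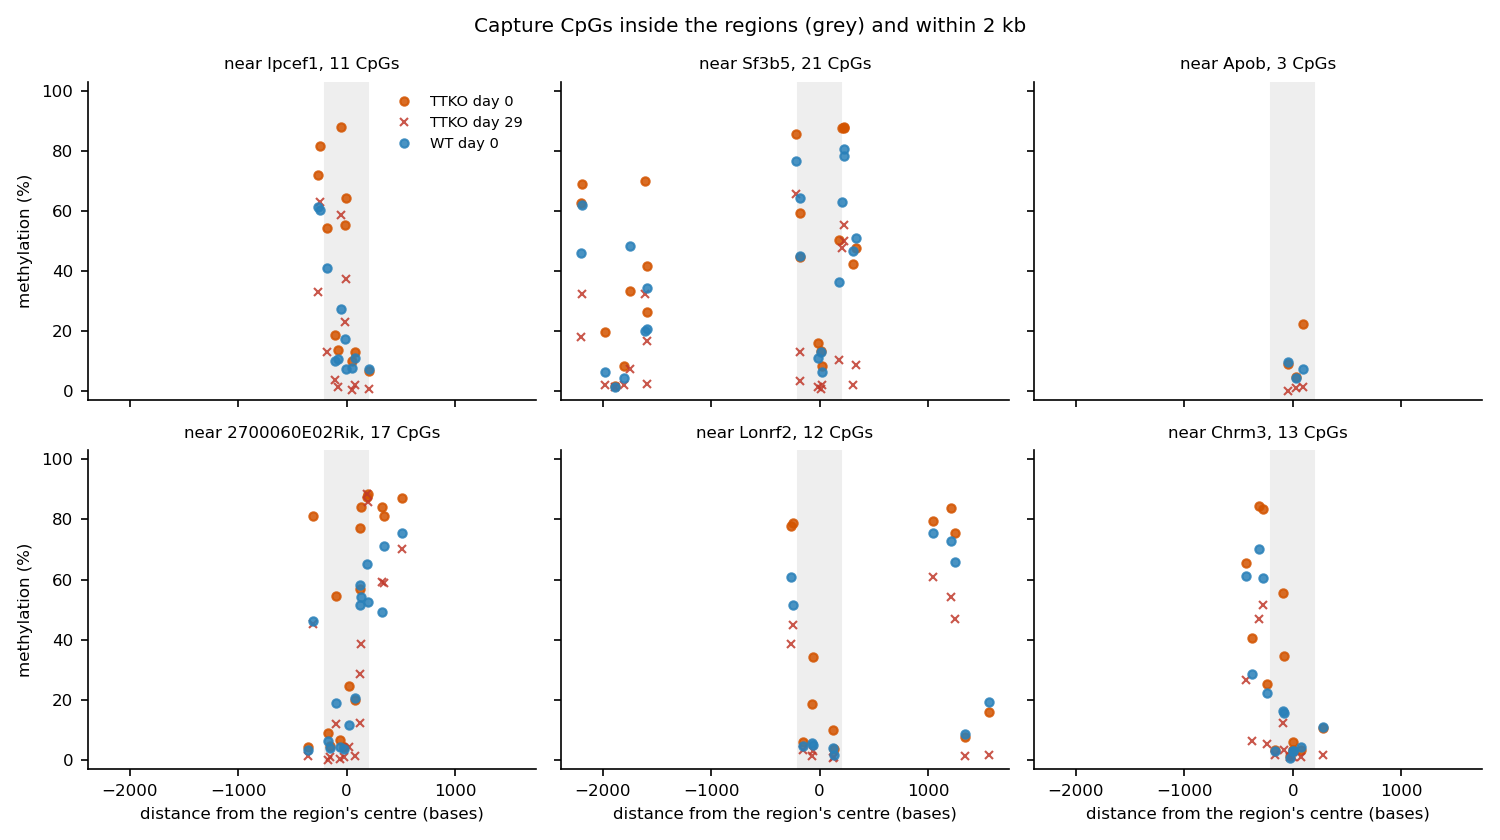
Methylation (%) of the 77 capture CpGs against distance in bases from the centre of each region, for TTKO at day 0, TTKO at day 29 after Cre and WT at day 0. The grey band is the region. As the mean of region means, TTKO day 0 levels are 26.2% inside the bands and 63.8% in the first 250 bases outside. Over the plotted CpGs they average 30.3% and 62.7%.

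Rates were estimated for each CpG from the 7 TTKO Cre time points, with a model in which methylation is added at 1 rate until the enzymes are lost and removed at another throughout. Both rates were identified with low noise at 16 of the 23 amplicon CpGs. The demethylation rate of these had a median of 0.0949 per day and ranged from 0.0108 per day at 3270090 to 0.230 per day at 20659116, a CpG whose single-replicate rates had an SD of 1.67 on the log2 scale. The rate was 0.0414 per day at 3270131 and 0.0211 at 3270136. In the 2700060E02Rik region it was 0.0563, 0.0334 and 0.0177 per day at 20659404, 20659412 and 20659417. 4 CpGs were not identified, each with at most 11.1% at day 0. In the capture data 24 of 41 CpGs inside had low noise, with a median of 0.0888 per day, and 29 of 36 flanking CpGs had a median of 0.0282 per day. The amplicon median was 0.0425 per day over 55 of 59 CpGs of the other constitutive low-methylated regions. It was 0.0506 over 49 of 98 CpGs of REST-bound ones, where 36 were not identified. These medians cover low-noise CpGs only, an unlike part of each type, and are given side by side without a test.

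The CTCF-bound regions were compared with the 19 other constitutive low-methylated regions, with 59 CpGs, and with 28 regions bound by REST, a repressor of neuronal genes, with 98 CpGs. In WT at day 0 the mean CpG level was 18.0% in CTCF-bound, 20.6% in other and 9.71% in REST-bound regions. In TTKO it was 33.2%, 61.5% and 19.3%. At day 29 the ratio of the CTCF-bound to the other constitutive level was 0.3997, 0.416 and 0.386 after Cre and 0.449, 0.433 and 0.441 in mock (15 and 53 CpGs), so Cre samples lay below mock samples (p = 0.1, exact permutation test, two-sided). The direction turned when only CpGs from 10 to 90% at day 0 were kept: the ratio was then 0.544 ± 0.016 after Cre and 0.522 ± 0.005 in mock (SD, n = 3). With region means the Cre minus mock difference in the ratio was -0.094, against -0.0402 here. With non-transduced cells in place of mock it was -0.0899, but over 23 and 59 CpGs. The 15 CpGs of the mock comparison leave out the 2700060E02Rik region, which had no level in mock replicate 3. A relative loss particular to CTCF-bound regions was not shown by this comparison. The ratio to REST-bound regions was 1.30, 1.41 and 1.198 after Cre and 1.49, 1.37 and 1.41 in mock, and the groups overlapped (p = 0.2, exact permutation test, two-sided). Its difference of -0.119 went to -0.200 without replicate 2 and -0.0707 without replicate 3.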

How the data were processed

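Amplicon and SureSelect bisulfite reads of WT and TTKO cells were aligned by the authors to mm9 with Rbowtie in QuasR. The deposited amplicon tables give, per CpG and sample, the coverage as read counts and the methylation level as a fraction. The deposited SureSelect table gives percent methylation and read counts with replicates joined. The authors kept levels with at least 100 (amplicon) or 50 (SureSelect) reads. Their columns of fitted rates, confidence classes and predicted or inferred TET activity were not used. Methylated reads were recovered as coverage times level, whole for 100% of amplicon values within 1e-06, and rounded for SureSelect. All 405 and all 77 member positions are CG in mm9.

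The members and lists were chosen with earlier results of these data known. Every member region was named, with the CpGs of highest and lowest TTKO level, largest and smallest difference between lines and, from 20% in mock or at day 0, largest and smallest relative loss. The ranges of distance from the CTCF match, and the neighbouring CpGs described beside these, were chosen after their values were seen. Reads with 0.5 added to both counts were fitted per CpG by a quasi-binomial model in R 4.3.3, with dispersions moderated by limma 3.58.1 over all CpGs, a floor of 1 and Benjamini-Hochberg adjustment over all CpGs. CpGs needed a level in 2 samples per group. SureSelect columns were compared by Fisher's exact test. Rates were read from a grid of 80 values per rate, with a decay of the de novo rate of 0.5 per day, 8% of alleles kept, a conversion error of 0.25% and an over-dispersion of 0.0055. Border probability had to stay under 0.08 in every replicate, and 95% credible ranges under 2 on the log2 scale counted as low noise. The scripts were tested on simulated data. Intervals cover counting error only, as amplified reads are not independent molecules. No pair of replicates agreed within sampling noise (the mean chi-square per CpG was at least 18.0).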

Additional observations from a re-analysis of the deposited data

How the results depend on the processing

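Replicate numbers did not pair the samples: same-numbered samples correlated between -0.33 and 0.22 in their deviations over the 13 comparisons, and no comparison had all 3 correlations over 0.1. With a replicate block the calls at day 8 went to 3 in TTKO and 4 in WT (32 and 97 of all 405 CpGs). The exact p of the mean differences was then 0.25, the smallest that 3 pairs allow, or 0.5 for the REST ratio. Limma on logit levels called 0 lower in TTKO at day 8 and 3 in WT at day 10 (1 and 53 of all 405 CpGs). At TTKO day 29, 12 CpGs were called with 1000 reads in every sample and 13 with levels in all samples, a choice made after seeing the data, because 15 CpGs were tested. Over all CpGs 199 of 302 and 256 of 384 were called. Without single replicates the TTKO counts ranged from 0 to 0 at day 8, 5 to 10 at day 10, 4 to 13 at day 13 and 8 to 16 at day 17, and the WT counts from 3 to 5 at day 8, 2 to 4 at day 10, 1 to 9 at day 13, 6 to 15 at day 17 and 11 to 14 at day 29. The Cre minus mock difference in the ratio to other constitutive regions reversed from -0.0402 to 0.0224 with CpGs from 10 to 90%, and went to -0.094 with region means and -0.0899 against day 0. The comparison with day 0 used 23 and 59 CpGs in place of 15 and 53. That of the REST ratio, -0.119, went to -0.241 with region means, -0.179 against day 0 and -0.031 with CpGs from 10 to 90%, and ranged from -0.200 to -0.0707 without single replicates. The WT difference of -6.48 points went to -14.9 with 1000 reads and -13.9 with levels in every sample compared, since more CpGs entered, and the TTKO minus WT difference of 15.2 to 26.0 with pooled reads. Their exact p could not fall below 0.1, so it says nothing about stability. With a 10-point minimum 23 of 41 capture CpGs inside (56.1%) were called, against 51.9% of all CpGs. The TTKO level inside moved to 30.3% as a mean over CpGs and to 24.3% at 150 reads, and that of the first 250 bases outside to 59.9% at 150 reads, where the region ranges inside and outside overlapped in both lines. The median demethylation rate moved to 0.106 per day with a faster decay of the de novo rate and 0.110 with a binomial likelihood, and from 0.0864 to 0.113 without single replicates. For the other changes the cause was not tested. No capture value has a replicate error.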
